A study of Mus musculus with 12 samples.

Results

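The transcript models described here are the TEC and sense_intronic entries of the mouse GENCODE annotation (release M21, build GRCm38) that were measured in mouse brain with and without Tert, the gene of the catalytic subunit of telomerase. A model was taken when its mean over the 6 libraries of a tissue was at least 10 normalized counts in cortex or hippocampus. This gave 110 of the 327 sense_intronic models and 1188 of the 3214 TEC models in the tables, together 1298 of 55487 gene rows. Nearest the limit among sense_intronic models, Gm44366 stayed out with means of 9.64 in cortex and 6.95 in hippocampus, and Gm43581 entered with 6.41 and 10.6. Among TEC models these were Gm43422 (3.96 and 10) and Gm43887 (5.21 and 10), whose hippocampus means round to the same value. RNA sequencing of total RNA, extracted with Trizol, covered 12 libraries in 4 groups of 3, all from C57BL/6 mice. These were cortex and hippocampus of mTert WT mice, called wild type here, and of mTert KO (G1) mice, labelled Homo and called knockout. The sources used here do not say whether the 3 libraries per group are from different animals, nor the number of animals, their age and sex, the allele, the sequencing batch or the strandedness. The p-values therefore measure the spread between these libraries, which may be technical in part.

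TEC is the annotation class of models that await an experiment: such a model was drawn from transcript evidence that had a sign of a poly(A) tail but needed an experiment to establish a gene, and most are a single block with no intron. A sense_intronic model lies within an intron of a coding gene and on the strand of that gene. RNA read over such an interval can be a transcript of its own, an unspliced precursor of the host gene, or an excised intron not yet degraded, and a count per gene model does not separate these. In neurons the hosts are often very long genes of synapses and adhesion, whose introns take up most of the transcribed length.

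The label "unspliced" held for the TEC models, of which 1187 of 1188 have one exon. It did not hold for the sense_intronic models, of which 51 of 110 (46.4%) have several exons. By position, 104 of the 110 sense_intronic models and 616 of the 1188 TEC models lay wholly in an intron of a protein-coding gene on the same strand, the host. An intron is here a gap between the merged exons of all transcripts of the host. Another 27 TEC and 2 sense_intronic models lay in a host but touched its exons. A further 228 TEC models lay on the opposite strand of a coding gene, 312 TEC and 4 sense_intronic models outside coding genes, and 5 TEC models overlapped one in part. With unknown strandedness, reads of models on an opposite strand cannot be told apart from reads of the gene they face. The median exonic length was 1572 bases for sense_intronic and 2282 bases for TEC models, and the median GC content 43.4% and 42.5%.

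The 3′ ends of 10 intron-borne models are printed first, as examples. They are the last 120 bases of the annotated transcripts (GENCODE, GRCm38), read 5′ to 3′ on the transcribed strand, with capitals where AATAAA or ATTAAA occurs, the hexamers that most often precede a poly(A) site. The first 4 belong to the models with the largest falls in knockout hippocampus among those with a mean of at least 50. Minus-strand ends lie on chromosome 6 from 113797807 to 113797926, chromosome 10 from 32263611 to 32263730 and chromosome 5 from 142874077 to 142874196. The plus-strand end lies on chromosome 7 from 88122281 to 88122400.
Gm44167: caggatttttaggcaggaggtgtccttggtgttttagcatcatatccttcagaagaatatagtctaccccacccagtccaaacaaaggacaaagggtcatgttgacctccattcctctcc
A230081H15Rik: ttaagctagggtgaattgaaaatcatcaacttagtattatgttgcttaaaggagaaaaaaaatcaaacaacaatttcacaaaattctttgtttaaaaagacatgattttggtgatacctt
D430018E03Rik: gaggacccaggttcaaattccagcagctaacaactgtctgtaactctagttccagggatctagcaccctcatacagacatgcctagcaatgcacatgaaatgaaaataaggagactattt
Gm44846: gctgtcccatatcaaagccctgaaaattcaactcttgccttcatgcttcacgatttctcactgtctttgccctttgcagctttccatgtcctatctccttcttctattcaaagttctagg
The next 2, chosen after their values were seen, rose the most among intron-borne models with a mean of at least 50 (chromosome 5, 130958923 to 130959042, minus strand, and chromosome 7, 49348964 to 49349083, plus strand).
Gm42896: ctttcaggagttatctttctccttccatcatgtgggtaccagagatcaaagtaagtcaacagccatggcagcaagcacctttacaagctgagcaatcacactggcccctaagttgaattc
Gm44913: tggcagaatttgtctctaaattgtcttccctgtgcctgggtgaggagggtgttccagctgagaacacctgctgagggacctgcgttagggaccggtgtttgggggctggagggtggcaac
The last 4, also chosen after their values were seen, are intron-borne sense_intronic models among the highest counts: chromosome 15, 72805600 to 72805719, minus strand, chromosome 14, 121253852 to 121253971, plus strand, chromosome 1, 3647309 to 3647428, minus strand, and chromosome 5, 122410955 to 122411074, plus strand.
Peg13: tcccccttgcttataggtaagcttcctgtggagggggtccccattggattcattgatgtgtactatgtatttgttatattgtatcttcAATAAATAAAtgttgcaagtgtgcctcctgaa
B930095G15Rik: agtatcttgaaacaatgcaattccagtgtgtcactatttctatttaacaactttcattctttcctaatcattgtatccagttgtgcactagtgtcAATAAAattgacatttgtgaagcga
Gm19938: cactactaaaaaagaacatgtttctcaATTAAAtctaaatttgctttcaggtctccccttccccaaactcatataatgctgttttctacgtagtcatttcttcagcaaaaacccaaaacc
Gm42829: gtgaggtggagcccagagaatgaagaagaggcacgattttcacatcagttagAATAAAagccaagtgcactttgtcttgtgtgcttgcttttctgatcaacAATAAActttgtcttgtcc
None of the 6 strongly changed ends held either hexamer. Of the 4 abundant ones, 3 held one within the last 50 bases, as counted on the transcribed strand. All 10 were picked by change or by count, so these counts give no support for a link of hexamer and change. Among all intron-borne TEC models only 20.5% to 22% held one, by length of the intron. Over all members the hexamer stood in the last 50 bases of 36.4% of sense_intronic and 35.4% of TEC models. The share was 53.2% for lincRNA genes, 52.5% for antisense genes and 73.3% for protein-coding genes that passed the same mean. On the opposite strand the same window held it in 7.27% and 8.16% of the members. A match is a description of the letters, and no match says nothing on whether an end is used.

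Depth was 68424934 to 86639113 reads per library taking the smallest step of the deposited values as 1 read, and Tert checked the labels: 206, 105 and 241 normalized counts in wild-type cortex against 0 in each knockout, and 147, 184 and 128 in wild-type hippocampus against 0, 6.31 and 0. Cortex wild-type library 2 stood apart from its group, since its chi-square per gene was 102 and 93.9 against the other 2 libraries, while these 2 gave 9.54. Cortex counts of called genes are therefore given with and without it. In hippocampus, wild-type libraries 1 and 2 were the farthest apart, at 48.8. All 6 cortex and 7 hippocampus markers were present in their tissue, and 3 of the 7 fell and 1 rose in knockout hippocampus, where their sum was 72812 to 76945 normalized counts against 89287 to 105637. All 7 striatum markers rose in knockout cortex (sum 29727 to 47456 against 11816 to 12869), with and without that library, and 1 of 6 meninges markers fell (17452 to 30782 against 38282 to 54466), or 3 of 6 without it. Also in cortex, 2 of 7 hippocampus markers fell, C1ql2 by 2.20 and Zbtb20 by 0.35 (sum 8018 to 8369 against 9080 to 10806), and without that library 3 fell and 1 rose. Of 6 choroid plexus markers there Clic6 rose by 0.97 (sum 2517 to 11271 against 1395 to 1719), and 2 rose without it. Of 6 cortex markers 1 fell and 1 rose, and without that library 1 fell and 4 rose. The choroid plexus marker sum ranged from 12455 to 346861 in wild-type and from 8995 to 18072 in knockout hippocampus, with 0 of 6 called by limma. At an unadjusted p below 0.05, 5 of the 6 were lower, beside 4507 of all 22337 genes. No listed marker was at 0 in all libraries, and the part of these cells in the results was not tested. Of all genes tested, 15.1% fell and 14.1% rose in hippocampus. In cortex 0.661% fell and 1.28% rose, or 10.4% and 11% without wild-type library 2.

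In hippocampus most changed models were lower in the knockout. Of 103 sense_intronic models tested, 36 fell and 3 rose, and of 1117 TEC models 327 fell and 107 rose, at an adjusted p below 0.05 (limma, Benjamini-Hochberg over all genes). Among all 22337 genes tested, 29.2% were called, 15.1% lower and 14.1% higher. The median log2 change, knockout minus wild type, was -0.37 for sense_intronic and -0.29 for TEC models, against 0.02 for all genes and 0.03 for protein-coding genes. Falls of at least 1 on the log2 scale made up 32 of the 36 and 282 of the 327. Quantile normalization gave 31 lower and 8 higher sense_intronic models and 270 lower and 161 higher TEC models, with medians of -0.15 and -0.03. A count over models that passed a mean of 10 leans toward those high in one group: the knockout mean alone was under 10 for 16 sense_intronic and 222 TEC models, and the wild-type mean for 1 and 25. The libraries of the 2 genotypes did not overlap in 55 of 103 sense_intronic and 590 of 1117 TEC models, beside 45.8% of all genes. Leaving out knockout library 1, 2 or 3 left 69, 65 and 66 TEC rises, leaving out wild-type library 3 left 23 sense_intronic falls, and sense_intronic rises numbered 1 without knockout library 1 and 5 without wild-type library 1. Among models with a mean of at least 100, 8 of 24 sense_intronic models fell and 2 rose, and 80 of 257 TEC models fell and 54 rose, with medians of -0.04 and -0.07. In such bulk libraries, fewer cells of a type and less RNA per cell cannot be told apart.

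The direction went with the length of the intron that holds the model. The classes of intron length were set after the data were seen. In introns of up to 10 kb, 125 of 216 models tested in hippocampus (57.9%) fell and 6 rose, with a median log2 change of -1.23. In introns of 10 to 30 kb, 69 of 177 fell and 12 rose (median -0.61). In introns of 30 to 100 kb, 24 of 130 (18.5%) fell and 28 (21.5%) rose (median 0.18). In introns over 100 kb, 17 of 153 (11.1%) fell and 36 (23.5%) rose (median 0.24). Over all genes 15.1% fell and 14.1% rose, so the falls in the 2 longer classes lay near that share. Without knockout library 3, the rises in the longest class numbered 23. The hosts of these 4 classes had median changes of -0.02, -0.01, -0.03 and -0.13. The models in short introns were thus lower while their hosts, as classes, had medians near 0. Single hosts changed both ways: in the shortest class 63 of 210 (30%) fell and 48 (22.9%) rose. In the longest class 30 of 72 hosts (41.7%) fell and 15 (20.8%) rose. All these host shares lay above those of all genes. Both biotypes of model showed the order in their medians. Sense_intronic models had medians of -0.81, -0.59, 0.14 and 0.17 from the shortest to the longest class, and TEC models -1.26, -0.61, 0.19 and 0.28. Sense_intronic models were few in the longer classes. At 30 to 100 kb 4 of 22 fell and 2 rose, and over 100 kb 0 of 10 fell and 1 rose.

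**Figure D1:**
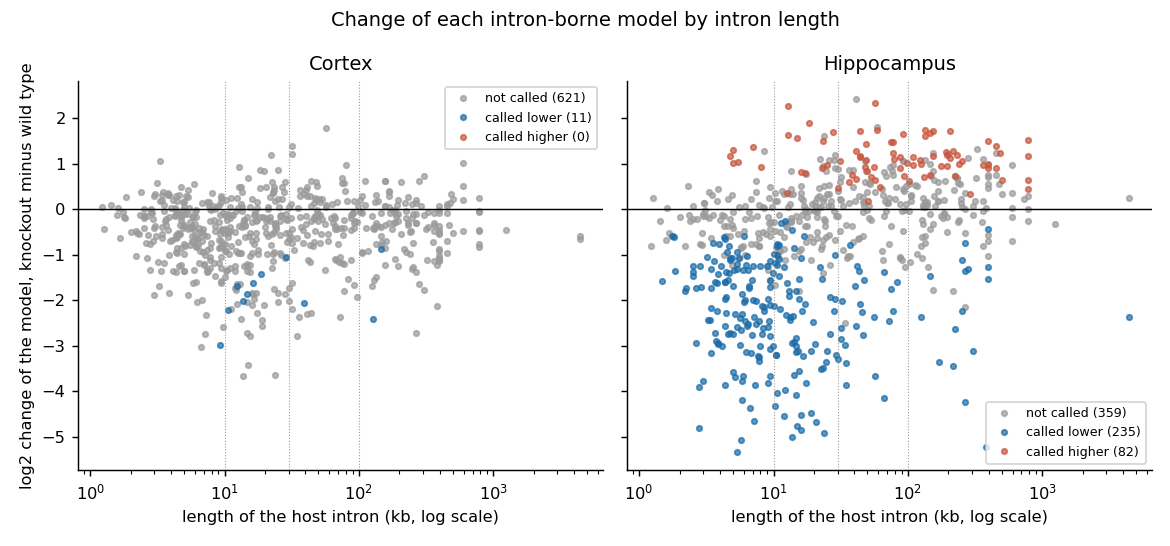
Log2 change of each intron-borne model (knockout minus wild type, vertical axis) against the length of the host intron in kb (log axis), in cortex and hippocampus, all libraries. Blue points were called lower, red points higher and grey points neither; dotted lines mark 10, 30 and 100 kb. In hippocampus the 235 blue points gather at short introns and the 82 red points at long ones.

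In each hippocampus library the models of the shortest class lay on their genotype's side. Their median log2 deviation from their own 6-library mean was 0.59, 0.59 and 0.57 in wild type and -0.56, -0.62 and -0.53 in knockout. Their summed normalized counts were 23014, 23776 and 23449 in wild type and 12281, 11667 and 12625 in knockout. The groups did not overlap. For the class over 100 kb the sums were 13730, 10817 and 12368 in wild type and 15071, 15766 and 17479 in knockout, and the median deviations were 0.12, -0.32 and -0.12 against 0.06, 0.12 and 0.35. Here the medians overlapped, since wild-type library 1 reached the knockout range.

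**Figure D2:**
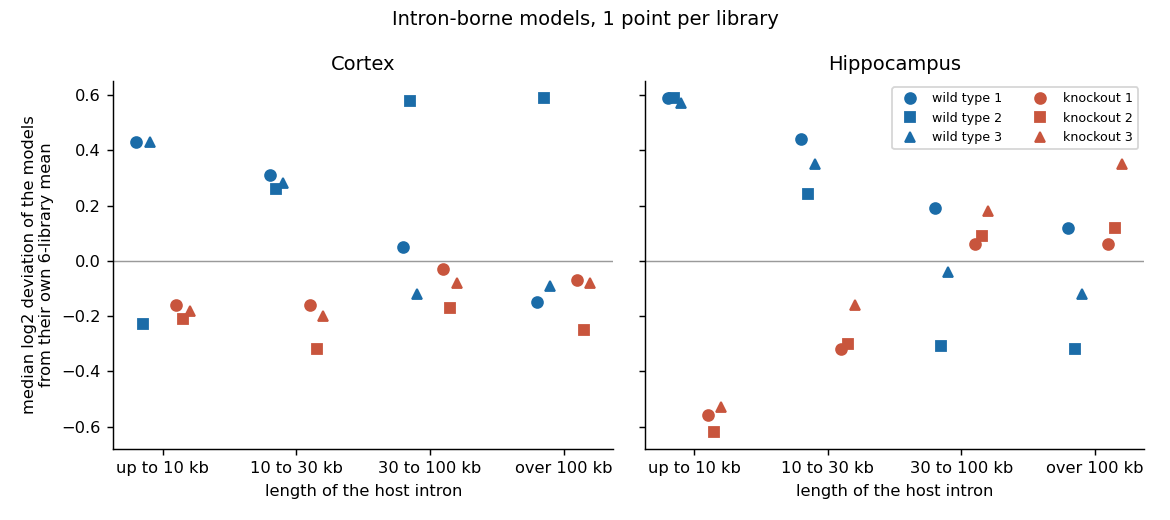
Median log2 deviation of the intron-borne models from their own mean over the 6 libraries of a tissue (vertical axis), by length class of the host intron, 1 point per library. In hippocampus the 3 wild-type libraries sit at 0.57 to 0.59 and the 3 knockout libraries at -0.62 to -0.53 in the shortest class; in cortex wild-type library 2 (square) sits at -0.23, with the knockouts.

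The shortest class had the lowest median in each class of abundance, but rises did not outnumber falls in long introns among the least abundant models. Among models with a hippocampus mean of 100 or more, 28 of 42 in introns of up to 10 kb fell and 1 rose (median -1.07), whereas in introns over 100 kb 4 of 38 fell and 21 rose (median 0.64). Among those with a mean from 30 to 100 the medians were -1.03 and 0.41, and under 30 they were -1.37 and -0.17. Under 30, 8 of 65 models in introns over 100 kb fell and 1 rose, and in introns of 30 to 100 kb 15 of 68 fell and 1 rose (median -0.10). It also held by base composition. With a GC content of up to 40%, the shortest and longest classes had medians of -1.34 and 0.24, and with over 44% they had -1.11 and 0.14. Of the models that share no base with an exon of another gene on either strand, 123 of 207 in the shortest class fell and 6 rose, and 16 of 149 in the longest fell and 34 rose. Other non-coding genes in introns of same-strand hosts, such as lincRNA, showed a narrower range, from a median of -0.05 in the shortest class (22 of 175 lower, 5 higher) to 0.14 in the longest (7 of 77 lower, 12 higher). These were 12.6% lower and 2.86% higher in the shortest and 9.09% and 15.6% in the longest class. Of all genes 15.1% fell and 14.1% rose, so the falls in the shortest and the rises in the longest class lay near those shares. The difference between these other non-coding genes and the members was not tested.

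**Figure D3:**
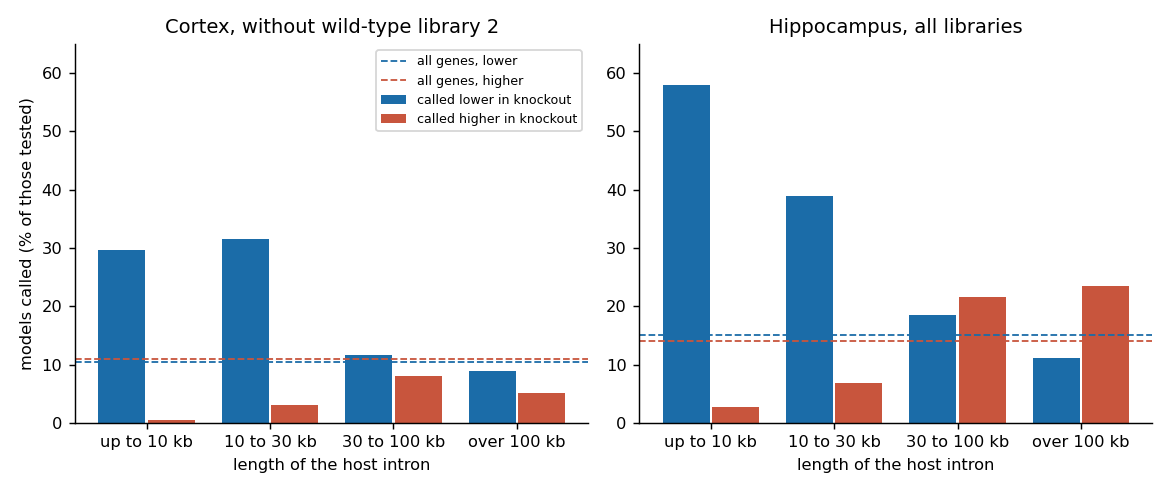
Percent of tested intron-borne models called lower (blue) or higher (red) in the knockout, by length class of the host intron; dashed lines give the same shares over all genes. In hippocampus the share called lower goes from 57.9% to 11.1% and the share called higher from 2.78% to 23.5%; in cortex without wild-type library 2 the share called lower goes from 29.6% to 8.89%.

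The position within the host and the 3′ hexamer moved with the change as well. In hippocampus 82 of 169 models in the last of 4 equal parts of their host fell and 9 rose (median -0.82), against 36 and 32 of 173 in the first part (median 0.01). Of all genes 15.1% fell and 14.1% rose. Of the models in the last part 90 lay in introns of up to 10 kb and 12 in introns over 100 kb, against 33 and 54 in the first part. From the shortest to the longest class, the last part had medians of -1.01, -0.84, -0.89 and 0.07, and the first part -0.65, -0.17, 0.24 and 0.26. The medians lay furthest apart at 30 to 100 kb, where 9 of 25 models in the last part fell and 3 rose, against 3 and 10 of 39 in the first. Of sense_intronic models, 18.4% of those with a hexamer in the last 50 bases and 44.6% of those without one fell, and of TEC models 21.3% and 33.6%. In the shortest introns, 23 of 49 with a hexamer fell and none rose, with a median of -0.80, and 102 of 167 without one fell and 6 rose, with a median of -1.32. The share of intron-borne TEC models with a hexamer was 22%, 22%, 20.5% and 20.8% from the shortest to the longest class. It was 35.4% over all TEC models, so those outside host introns held one more often. Of TEC models tested in hippocampus, 34.8% fell in introns, 25.2% opposite a coding gene and 18.6% outside coding genes. The contrast by hexamer over all TEC models is therefore mixed with place. The counts for the shortest introns are not mixed with place in this way, but they are mixed with biotype. There 29.8% of sense_intronic and 22% of TEC models held a hexamer, and their median changes were -0.81 and -1.26. These shares are given as a description, without a test of their difference.

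Among models with a mean of at least 50, the largest falls brought models that were plain in all wild-type hippocampi close to 0. Gm44167 (ENSMUSG00000108297, sense_intronic, chromosome 6, 113797807 to 113799684, minus strand) lies in a 5.33 kb intron of Atp2b2, the gene of a plasma membrane calcium pump. It had 203, 128 and 163 normalized counts in wild type and 1.95, 2.71 and 4.83 in knockout, and fell by 5.35 ± 0.34 (log2, SE, adjusted p = 6.14e-05, limma). Atp2b2 itself had 44090, 47556 and 45618 normalized counts in wild type and 42676, 41481 and 42323 in knockout, a change of -0.12 (adjusted p = 0.0818). D430018E03Rik, in a 5.77 kb intron of Fbxl18, an F-box gene, had 110, 163 and 153 in wild type and 2.93, 5.41 and 1.93 in knockout, and fell by 5.07 ± 0.36 (adjusted p = 9.02e-05). Its host fell by 0.33. Gm44846 lies in a 13.7 kb intron of Grm5, the gene of a metabotropic glutamate receptor. It had 135, 140 and 117 against 3.91, 3.61 and 1.93 normalized counts, and fell by 5.02 ± 0.30, while Grm5 fell by 0.79. A230081H15Rik had 125, 121 and 136 against 1.95, 3.61 and 1.93, and fell by 5.23 ± 0.30, although the intron of Nkain2 that holds it spans 378 kb, an exception to the order by length, and Nkain2 rose by 0.31. In all 4 models every wild-type library lay above every knockout library.

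Among models of higher count, Gm43843 in a 2.78 kb intron of Cttnbp2, a gene of dendritic spines, had 1026, 1397 and 1073 normalized counts in wild type and 75.2, 64 and 89 in knockout. It fell by 3.92 ± 0.16 (adjusted p = 1.62e-05), and its host by 0.21. A930004J17Rik, in the first intron of the splicing factor gene Srsf4 (10.4 kb), had 597, 648 and 618 against 67.4, 78.5 and 55.1. It fell by 3.21 ± 0.14, whereas Srsf4 rose by 0.24 (adjusted p = 0.0144). Gm38190 in the Tiprl gene had 359, 381 and 386 against 62.5, 78.5 and 73.5 and fell by 2.38 ± 0.13, while Tiprl rose by 0.16. Gm42664 lies in a 3.87 kb intron of Ptbp2, which encodes a neuronal regulator of splicing. It had 212, 166 and 178 against 37.1, 17.1 and 19.3, and fell by 2.94 ± 0.30, whereas Ptbp2 rose by 0.21. Gm45591, a model of 2 exons in a 15.4 kb intron of the microtubule gene Map6, had 203, 223 and 185 against 12.7, 21.6 and 15.5, and fell by 3.57 ± 0.23, with Map6 at 0.08 (adjusted p = 0.243). Gm38077, which touches exons of Mrpl3, a mitochondrial ribosome gene, fell by 2.80 ± 0.14 and is uncertain, since reads could be shared with that gene. Gm38372 in Pcmtd1 fell by 4.66 ± 0.68 and Gm44667 in Mef2a, a transcription factor gene, by 4.67 ± 0.78, with hosts at -0.06 and -0.00. Not every fall lay in a host: Gm37608, outside coding genes on chromosome 7, had 236, 233 and 240 against 2.93, 9.92 and 8.7 and fell by 4.99 ± 0.39.

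For 7 tested models all 3 knockout hippocampi were at 0. These passed the mean of 10 through wild type alone, so their number follows in part from the filter. The same count over all genes is not given here. Set against the floor of 3 reads per library, Gm45309, in a 2.79 kb intron of Hps5, was at least 9.7-fold lower, from 25.4, 22.5 and 34.9 normalized counts in wild type. The widest of these bounds, at least 27.6-fold, belonged to Gm49599, which touches exons of Golgb1 and had 101, 32.1 and 103 in wild type; it was chosen after its values were seen. Golgb1 itself changed by -0.92.

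Rises were smaller and lay mostly in long introns. Gm42896, in a 56.9 kb intron of the glycosyltransferase gene Galnt17, had 20.3, 28.9 and 29.6 normalized counts in wild type and 136, 130 and 138 in knockout. It rose by 2.33 ± 0.21 (adjusted p = 0.00021), with Galnt17 at 0.17 (adjusted p = 0.225). Gm44913, in an 18.5 kb intron of Nav2, a gene of neurite outgrowth, had 27.5, 33.2 and 40.2 against 117, 135 and 130 and rose by 1.90 ± 0.20. Gm37965, in a 204 kb intron of Egfem1, had 56, 54.6 and 64.5 against 159, 209 and 215 and rose by 1.71 ± 0.17. Each of these 3 sets of libraries was apart, all knockouts above all wild types. Gm47592, in a 145 kb intron of Anks1b, a gene of the postsynaptic density, rose by 1.67 ± 0.24, and Gm37728, outside coding genes, by 1.79 ± 0.26. The 3 sense_intronic rises were Gm43111 in Cdk14 (1.11 ± 0.25), Gm37814 in the 131 kb intron of Frmd4a (0.71 ± 0.12) and Peg13 (0.18 ± 0.05). Of these, Gm37814 shares bases with an exon of a gene on the other strand and is uncertain.

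**Figure D4:**
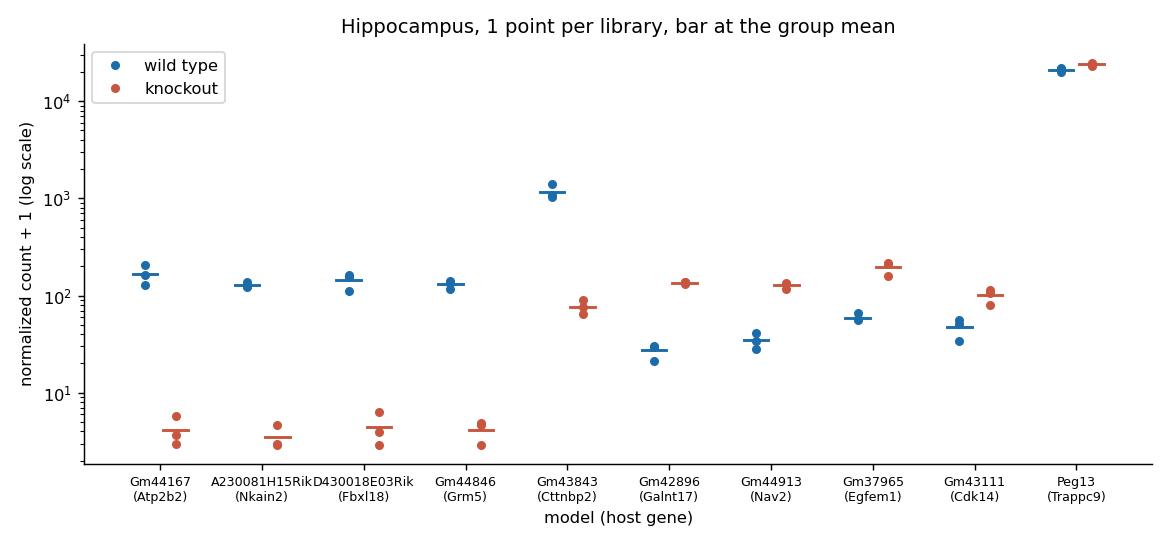
Normalized count + 1 (log axis) of 10 intron-borne models in hippocampus, with the host in brackets; points are libraries, bars group means. The 5 models on the left are lower in every knockout library, from 203, 128 and 163 to 1.95, 2.71 and 4.83 for Gm44167; the 5 on the right are higher in every knockout library, with Peg13 the nearest.

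The members of the highest counts had small changes, called or not. Peg13, an imprinted non-coding gene in a 50.8 kb intron of Trappc9, had 19966, 21892 and 21437 normalized counts in wild-type and 24720, 23987 and 23146 in knockout hippocampus, a mean of 4767 per kb of exon. Trappc9 rose by 0.26, and the difference between model and host was -0.07 ± 0.05 (adjusted p = 0.269). B930095G15Rik, of 2 exons in an intron of Farp1, reached 1068 per kb and fell by 0.30 ± 0.05. Gm42829, in a 7.82 kb intron of Arpc3, a subunit gene of the Arp2/3 actin complex, had 630, 827 and 754 against 739, 786 and 834, with a change of 0.10 ± 0.11 (adjusted p = 0.518): a model in a short intron with no call. Among TEC models, 9330162G02Rik had the highest counts, 7305, 6510 and 6853 against 4621, 4047 and 5137, and fell by 0.59 ± 0.09, and it faces Ube3a on the opposite strand, with which reads could be shared. A230103L15Rik rose by 0.26 ± 0.08 and Gm44509 by 0.32 ± 0.07.

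Set against its own host within each library, the log2 change of the model lay below that of the host in 39 of 97 sense_intronic pairs and above it in 9, by the limma test of the difference. For TEC models these counts were 217 and 111 of 599 pairs. Over all 1094 pairs of a non-coding model and its host, 44.9% were called, 27.9% lower and 17% higher. Most of these pairs are the members themselves. Of the 398 pairs of other biotypes 12.3% were lower and 16.6% higher, with a median difference of 0.03. The median differences were -0.30 for sense_intronic and -0.40 for TEC models. The smallest p-values were those of Gm43843 against Cttnbp2, with a difference of -3.71 ± 0.15 (adjusted p = 8.06e-07), and A930004J17Rik against Srsf4, at -3.45 ± 0.15. In introns of up to 10 kb 127 of 214 pairs were lower and 8 higher, and in introns over 100 kb 16 of 151 were lower and 48 higher.

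**Figure D5:**
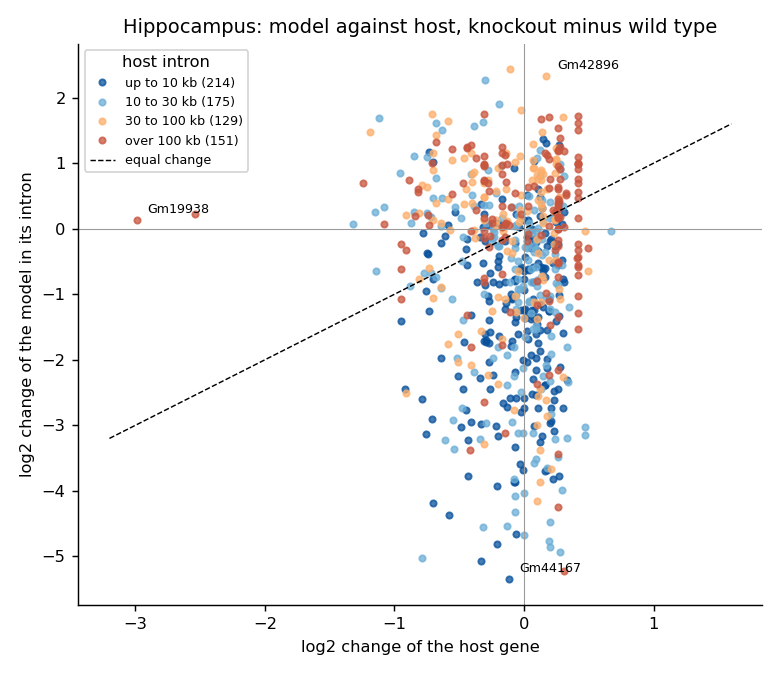
Log2 change of each intron-borne model (vertical axis) against that of its host gene (horizontal axis), knockout minus wild type in hippocampus, coloured by the length class of the intron; the dashed line marks equal change. Hosts lie mostly within 1 of 0 while models spread from -5.35 to over 2, and Gm19938 lies at 0.13 with its host Xkr4 at -2.99.

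Some hosts fell while no call was made for their model. Xkr4, a gene of the XK-related family of membrane proteins, had 2318, 3086 and 2625 normalized counts in wild-type and 344, 304 and 355 in knockout hippocampus, and fell by 2.99 ± 0.11. Gm19938, of 2 exons in its 249 kb first intron, had 802, 639 and 727 against 774, 762 and 819, a change of 0.13 ± 0.09 (adjusted p = 0.339). The difference between them was 3.12 ± 0.17 (adjusted p = 2.01e-06). In cortex Xkr4 had 2112, 623 and 2080 in wild type and 578, 529 and 563 in knockout, so wild-type library 2 lay near the knockouts. There the change of Gm19938 was -0.20, and 0.10 without that library. Another pair, named after its values were seen, was 4930404K13Rik in a 730 kb intron of Hs6st3, with a change of 0.22 (adjusted p = 0.848) beside a host that fell by 2.54.

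The members were spread over 518 hosts in hippocampus, 428 with one model and 90 with several, so models of one host share their source and are not independent. Kcnip4, a gene of potassium channel subunits, held 22 models in introns of 135 to 396 kb, of which 3 fell and 6 rose, from -1.53 for Gm42768 to 1.72 for Gm43829, with a median of 0.51 beside 0.42 for the host. Dlg2, which encodes a synaptic scaffold, held 14, of which 2 fell and 4 rose, with the host at -0.31. They ranged from -3.29 for B230206I08Rik to 1.11 for Gm45183. B230206I08Rik lies in an intron of over 30 kb, against the order by length. Also against that order, in Adgrb3, an adhesion receptor gene, 3 of 11 models in introns of 167 to 266 kb fell and none rose, with Gm36952 at -4.24. Lrrtm4, a synaptic adhesion gene, held 7 models in one 783 kb intron, of which 4 rose and none fell. Beside these counts per host, 15.1% of all genes fell and 14.1% rose. Ank2, the gene of an ankyrin, held the widest range: A930036I15Rik in a 5.84 kb intron fell by 4.19 ± 0.25 and Gm43751 in a 3.94 kb intron by 0.76, whereas Gm42970 and Gm42971 in an 86.6 kb intron rose by 0.90 and 1.15, with Ank2 at -0.70. Against the order by length, Gm43322 in a 5.01 kb intron of Ank2 rose by 1.02. Of 12 hosts with models both in introns of up to 10 kb and of over 30 kb, the short-intron models had the lower median in 10. Prkcb, a protein kinase C gene, was one, with Gm44746 in a 3.74 kb intron at -2.90 and Gm44663 in a 126 kb intron at 1.00. These members of Ank2 and Prkcb were chosen after their values were seen.

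In cortex few models were called with all libraries in. Of 103 sense_intronic models 1, Gm19409, fell and none rose (it shares bases with an exon of a gene on the other strand and is uncertain), and of 1065 TEC models 20 fell and 4 rose, against 1.94% of all 21945 genes, 0.661% lower and 1.28% higher (limma). At an unadjusted p below 0.05, 24 sense_intronic models were lower and 1 higher, and 215 TEC models were lower and 26 higher. Of all 21945 genes 1840 were lower and 2200 higher at that p. Each of the 5 remaining libraries, when left out in place of wild-type library 2, left 0 sense_intronic calls, 1 or 2 TEC falls and 0 TEC rises. The groups did not overlap in 30 sense_intronic and 272 TEC models, beside 28.3% of all genes. At a median of -0.34 and -0.28, the models still lay below all genes (-0.01). Without wild-type library 2, 21 of 104 sense_intronic models fell and 2 rose, and 199 of 1041 TEC models fell and 34 rose, against 10.4% lower and 11% higher over all genes, with medians of -0.38 and -0.26. By intron length the medians with all libraries were -0.44, -0.49, -0.28 and -0.34 from the shortest to the longest class, and without library 2 they were -0.62, -0.48, -0.07 and -0.01. The difference rests on that library: in introns of up to 10 kb its sum was 14520 normalized counts, beside 22023 and 21571 in the other wild types and 15106, 14586 and 14779 in the knockouts. In introns over 100 kb it was 18852, beside 11138 and 11080 in wild type and 11651, 10253 and 11274 in knockout. Of the models in introns of up to 10 kb, 1 of 209 fell with all libraries and 61 of 206 without library 2. Of 11 hosts with models in both short and long introns, the short-intron models had the lower median in 8, and without library 2 in 6 of 10.

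With all libraries in, Gm37226 and Gm45640 were among the largest cortex falls of models with a mean of at least 50. Gm37226, outside coding genes on chromosome 9, had 254, 144 and 279 normalized counts in wild type and 49.9, 53.8 and 49.2 in knockout, and fell by 2.07 ± 0.26 (adjusted p = 0.0168, limma). In hippocampus it fell by 2.97. Gm45640, in a 16.2 kb intron of the chromatin remodeller gene Chd9, had 910, 893 and 736 against 298, 238 and 280 and fell by 1.63 ± 0.13 (adjusted p = 0.0045). Gm37274 in Cpne1 fell by 1.42 ± 0.25. The model 6430511E19Rik, which faces Pcf11 on the opposite strand and could share its reads, fell by 1.30 ± 0.24. In these 4 models no wild-type library reached down to the knockouts. The 4 rises all lay outside coding genes: Gm19439 by 0.88 ± 0.15, Gm37795, whose exon holds Mir34a, by 0.87 ± 0.15, Gm42528 by 0.71 ± 0.10 and 9330121K16Rik by 0.41 ± 0.07. Against their hosts, 3 of 96 sense_intronic and 17 of 557 TEC models changed in cortex, all as lower. Beside them stood 2.26% of all 1018 pairs, most of which are members, and 0.822% of the 365 pairs of other biotypes. At an unadjusted p below 0.05 there were 18 lower and 0 higher sense_intronic pairs and 125 lower and 4 higher TEC pairs. Beside these, 24 of the 365 pairs of other biotypes were lower and 6 higher. Leaving out any library but wild-type library 2 left 0 calls. The pairs called with all libraries included Gm45591 in Map6 (-2.85 ± 0.48), Gm19409 in Mapre3 (-2.11 ± 0.40), Gm44167 in Atp2b2 (-2.37 ± 0.47), E030022I16Rik in the RNA helicase gene Ddx6 (-3.13 ± 0.51) and Gm48267 in Cadps, a gene of vesicle priming (-1.34 ± 0.24). Without library 2 these were 22 and 166 pairs, 21 and 135 of them lower, beside 17% of 1003 pairs lower and 4.59% higher. Of the 365 pairs of other biotypes 4.11% were then lower and 3.84% higher.

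The knockout effect differed between the tissues, by the interaction term over the 12 libraries, for 4 of 96 sense_intronic and 27 of 994 TEC models, beside 3.02% of 21282 genes, 2.05% lower and 0.963% higher. All 4 of the former (4.17%) and 16 of the latter (1.61%) were lower in hippocampus relative to cortex, and 11 TEC models (1.11%) were higher, so the TEC shares lay near those of all genes. D430018E03Rik had the smallest p among sense_intronic models: it fell by 5.07 in hippocampus, beside 149, 30.1 and 130 normalized counts in wild-type and 80, 60 and 55.6 in knockout cortex, where the groups overlap through library 2 alone. Hippocampus minus cortex gave -4.70 ± 0.73 (adjusted p = 0.00947). Gm38340, in a 66.5 kb intron of the zinc finger gene Tshz3, had 197, 162 and 171 against 12.7, 7.22 and 7.74 in hippocampus and 421, 203 and 375 against 146, 154 and 142 in cortex, a difference of -3.05 ± 0.38 (adjusted p = 0.00314). The reverse was seen for Gm45640, with 504, 494 and 492 against 375, 476 and 521 in hippocampus and a difference of 1.50 ± 0.19 (adjusted p = 0.00319). Leaving out wild-type library 2 of cortex gave 7 of 97 and 63 of 979 models, beside 9.24% of genes, 6.18% lower and 3.07% higher. The TEC count was 73 without cortex wild-type library 1, 48 without library 3, and 7 to 11 without one cortex knockout library. In hippocampus it was 6 without wild-type library 3, 14 without library 1, and 6 to 16 without one knockout library. The sense_intronic count was 7 without cortex wild-type library 1, 1 or 2 without cortex knockout library 1 or 3, 2 or 1 without hippocampus knockout library 1 or 2, and 1 without hippocampus wild-type library 3.

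Of TEC models outside coding genes, 54 of 290 (18.6%) fell in hippocampus, near the 15.1% of all genes, and 19 (6.55%) rose, beside 14.1% (median -0.22). On the opposite strand of a coding gene 55 of 218 (25.2%) fell and 8 rose (-0.33), and in introns 201 of 578 (34.8%) fell and 79 rose (-0.37). Sense_intronic models of one exon had a median of -0.44 (16 of 54 fell, 3 rose) and those of several exons -0.34 (20 of 49 fell, none rose).

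RNAs known to stay in the nucleus were in part lower in the knockout as well. The summed share of Malat1, Neat1, Meg3, Miat, Kcnq1ot1 and Snhg11 was 0.84% to 0.951% of counts in wild-type and 0.585% to 0.637% in knockout hippocampus, with 3 of the 6 called lower, Malat1 by 0.95 ± 0.11, Meg3 by 0.46 ± 0.06 and Miat by 0.64 ± 0.05. Of all genes, 15.1% were called lower in hippocampus. In cortex the share was 1.05% to 1.19% and 0.837% to 0.94%. There 2 of 6 were called lower, and 4 of 6 without wild-type library 2, beside 0.661% and 10.4% of all genes. Mitochondrial transcripts went the other way in hippocampus, with 7 of 9 higher, beside 14.1% of all genes. Their share was 3.14% to 3.46% in wild type and 3.92% to 4.6% in knockout. In cortex limma called 0 of these 9 with all libraries, with 1 higher at an unadjusted p below 0.05, beside 2200 of all 21945 genes. Without wild-type library 2 it called 5 higher, beside 11% of all genes. Their part in the changes of the models was not tested.

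Genes that trim, cleave or terminate such RNA were called in hippocampus at a share near that of all genes, 20 of 77 (26%) over 4 lists beside 29.2%. Of 20 tested genes of the nuclear exosome, which degrades unstable nuclear RNA, and its cofactors, 2 were lower in hippocampus, Zfc3h1 by 0.70 ± 0.06 and Zcchc7 by 0.22 ± 0.04, and 2 were higher, among them Exosc9 by 0.23 ± 0.05. Of 14 Integrator genes, whose complex cleaves short nascent RNA, 4 were lower, with Ints2 at -0.55 ± 0.06, and none was higher. Of 22 genes of cleavage, polyadenylation and termination 3 were lower, among them Cdk12 at -0.65 ± 0.04 and Cpsf6 at -0.47 ± 0.08, and 2 were higher. Of 21 genes of splicing and intron turnover 2 were lower, Prpf8 and Snrnp200, and 5 higher. The medians of the 4 lists were 0.11, -0.06, 0.05 and 0.08, beside 0.02 over all genes. In cortex limma called 0 of these genes with all libraries, and at an unadjusted p below 0.05 it found 1 lower and 1 higher exosome gene, 0 Integrator genes, 3 higher genes of cleavage and polyadenylation, and 1 lower and 2 higher splicing genes. Over all 21945 genes 1840 were lower and 2200 higher at that p. Without wild-type library 2, 13 of the 77 were called (16.9%, beside 21.4% of all genes): 2 lower and 1 higher exosome genes, 1 lower Integrator gene, 3 lower and 3 higher genes of cleavage and polyadenylation, and 2 lower and 1 higher splicing genes.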

How the data were processed

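The deposited tables, 1 per tissue with 6 libraries each, hold a signal that the authors call normalized counts. The submitters' processing notes name STAR, HTSeq, DESeq2 and build GRCm38 but give no version. Settings and how overlapping genes were counted are not stated there or in the labels. The values of each library were whole multiples of 1 step (100% within 0.001), read as 1 read, which could not be checked in cortex for wild-type libraries 1 and 2. The tables were scaled apart, so levels were compared within a tissue. A value of 0 allows up to 3 reads, for counting error only. Columns of other samples numbered 0.

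Identifiers were matched to GENCODE M21 (55227 of 55487 rows; 260 not). Genotypes were compared on log2(normalized count + 1) by limma 3.58.1 (R 4.3.3, trended prior variance), over genes whose 6 libraries averaged 10 or more. That scale understates the change of low genes. Calls were made at a Benjamini-Hochberg adjusted p below 0.05 over all genes, and "fell" and "rose" are used of called genes. Model minus host was fitted alike on the difference of the log2 values, over all non-coding models inside a coding gene of the same strand. The interaction was fitted over 12 libraries taken as independent. Models were named per biotype and tissue: among called models with a mean of at least 50 and groups apart, the 5 largest falls and rises; the 3 of highest mean; and the 3 of smallest p for model minus host. The 3 of smallest interaction p were added per biotype. Of each gene list, up to 3 of smallest p were named. One model named by this rule is not reported here. Other models, and 6 of the 10 printed sequences, were chosen by their values. The members, classes and lists were chosen with earlier results of these data known.

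On simulated data with 21945 cortex genes, 88% of genes changed by 1 (log2) and 41% of those changed by 0.5 were called, with 7.86% of calls false. For hippocampus (22337 genes) these were 92%, 43% and 6.25%, and for the interaction (21282 genes) 78%, 14% and 11.5%. In the real cortex libraries, falls of at least 1 were called for 16 TEC models. With the wild-type library that stood apart left out, they were called for 152. The spread of the simulated libraries is not given here, so the simulated shares do not show that an uncalled cortex model is unchanged. Alternatives were another pseudocount, no filter, TMM and quantile scaling, no trend, edgeR 4.0.16 on recovered hippocampus reads, a replicate block and leaving out each library.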

Additional observations from a re-analysis of the deposited data

Results flagged for a closer look

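The knockout effect differed between hippocampus and cortex, by the interaction term of limma over 12 libraries, for 4 of 96 sense_intronic and 27 of 994 TEC models, beside 3.02% of all 21282 genes. The TEC share is near that of all genes, with 1.61% lower and 1.11% higher beside 2.05% and 0.963%. Of the models named by the rule, 9 were among them. The change in hippocampus minus that in cortex was -4.70 for D430018E03Rik, -4.04 for Gm45309, -3.46 for Gm44167 and -2.60 for Gm17024 among sense_intronic models. Gm17024, in a 5.19 kb intron of Ifrd1, had 61, 81.3 and 51.8 normalized counts against 10.7, 9.92 and 16.4 in knockout hippocampus, and 31.7, 17 and 42.1 against 41.4, 24.8 and 41.7 in cortex. Among TEC models it was -3.05 for Gm38340, -2.59 for Gm43843, -2.33 for Gm44021, 1.50 for Gm45640 and 2.26 for Gm37965. Gm44021, in a 74.7 kb intron of Tmtc1, had 171, 138 and 183 against 51.7, 50.5 and 40.6 in hippocampus, and 56.5, 49.1 and 102 against 98.8, 100 and 95.2 in cortex; it shares bases with an exon of a gene on the other strand. Leaving out a single library gave counts of such calls from 1 to 7 for sense_intronic and from 6 to 73 for TEC models.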

How the results depend on the processing

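Hippocampus falls kept their count within 1.5 times under every alternative of scaling, filter, pseudocount, trend, edgeR and block. edgeR on recovered reads called 39 sense_intronic models lower and 3 higher, and 336 and 101 TEC models. Quantile normalization moved hippocampus rises to 8 sense_intronic and 161 TEC models, the medians to -0.15 and -0.03, and those of the shortest and longest intron classes to -0.91 and 0.52. A pseudocount of 10 gave -0.87 for the shortest class, and no filter a sense_intronic median of -0.47. In cortex, where edgeR was not run, nor for the interaction, because whole reads could not be checked in 2 libraries, no filter gave 0 sense_intronic falls, 8 TEC falls and 2 rises, 0 and 0 model-minus-host calls and 0 falls in the shortest class. No trend gave 7 TEC falls, 0 rises, and 0 and 4 model-minus-host calls. Quantile normalization gave 0 sense_intronic and 11 TEC falls, 0 and 0 model-minus-host calls, medians of -0.20 and -0.14 and 0 falls in the shortest class. TMM gave 2 sense_intronic falls and 2 in the shortest class, and a pseudocount of 10 medians of -0.27 and -0.22 and 2 such falls. The interaction gave 15 TEC calls with no filter and 15 with no trend, and 2 sense_intronic calls with a pseudocount of 10. The cause was not tested.

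Same-numbered libraries of the 2 genotypes did not deviate together within a tissue (correlations of -0.06 to 0.09), nor did those of the 2 tissues within a genotype (-0.09 to 0.06). The labels do not say whether a number marks 1 animal, so the numbers were not taken to pair the samples. A replicate block gave 0 sense_intronic and 2 TEC falls and 0 TEC rises in cortex, 32 and 294 falls and 2 and 95 rises in hippocampus, and 1 and 6 interaction calls. A replicate block across the tissues of a genotype, added after seeing the data, gave 2 and 6.

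Leaving out single libraries gave, in cortex, 0 to 21 sense_intronic falls, 0 to 2 rises and medians of -0.38 to -0.28, 1 to 199 TEC falls, 0 to 34 rises and medians of -0.30 to -0.25, 0 to 22 and 0 to 166 model-minus-host calls, and 0 to 61 falls (median -0.62 to -0.32) in the shortest and 0 to 7 rises (-0.45 to -0.01) in the longest intron class. In hippocampus it gave 23 to 36 and 222 to 311 falls, 1 to 5 and 65 to 116 rises, medians of -0.51 to -0.34 and -0.34 to -0.26, 34 to 45 and 268 to 311 model-minus-host calls, 85 to 116 falls (-1.19 to -1.13) in the shortest and 23 to 43 rises (0.15 to 0.36) in the longest class. The interaction gave 1 to 7 and 6 to 73 calls.

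Of the values of named models under an alternative, 1725 kept direction and call, 39 gained and 214 lost a call, and 26 turned sign, none of them called with all libraries. Quantile normalization turned Gm47592 in cortex to 0.04. The others turned on leaving out 1 library. The cortex changes then ranged from -0.15 to 0.09 for A230103L15Rik, -1.10 to 0.04 for D430018E03Rik, -0.06 to 0.57 for Gm17024, -0.39 to 0.10 for Gm19938, -0.02 to 0.48 for Gm37814, -0.04 to 0.11 for Gm42829 and -0.43 to 0.43 for Gm47592. Model minus host in cortex ranged from -0.12 to 0.03 for B930095G15Rik, -0.24 to 0.55 for Gm17024, -0.21 to 0.48 for Gm37814, -0.11 to 0.54 for Gm37965, -0.06 to 0.14 for Gm42829 and -0.70 to 0.35 for Gm47592. In hippocampus the changes ranged from -0.06 to 0.32 for Gm37795, -0.01 to 0.19 for Gm42829 and -0.23 to 0.00 for Gm45640, and Gm45640 minus host from -0.00 to 0.26.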
